A study of Danio rerio with 3 samples.

Results

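Zebrafish larvae exposed to 500 μg/L BDE47 were compared directly with larvae exposed to 5 μg/L BDE47, without a vehicle library between them. Of 19814 named mRNA genes in the table, 17707 had at least 10 normalized counts in 1 or both of these libraries, and these genes are described here. The remaining 2107 named genes were below that minimum in both libraries, and 307 of them had no read in either. Both groups were wild-type larvae of the Tuebingen strain, collected whole at 6 days post-fertilization (dpf). Exposure began in the first hours after fertilization, and both groups carried the same DMSO vehicle in the medium. Poly(A) RNA from a pool of larvae at each dose was sequenced once, so each dose had 1 library and no difference between the doses had a replicate check.

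BDE47 (2,2′,4,4′-tetrabromodiphenyl ether) is a lipophilic flame retardant of the polybrominated diphenyl ether family that persists in the environment and resembles thyroid hormones in structure. Cells meet damage to proteins, shortage of amino acids or oxygen, and oxidants with separate transcriptional programs, among them the heat shock response driven by Hsf1, the integrated stress response driven by Atf4, the hypoxia response and the Nrf2 response. Injury to a tissue also brings immediate early transcription factors of the AP-1 family, inflammatory cytokines and neutrophils. At 6 dpf a zebrafish larva swims, sees in colour, digests with a working pancreas and liver, and still lays down cartilage and bone, so a whole-larva library samples all of these tissues at the same time.

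The deposited values were normalized counts, in which every value was a whole multiple of the value of 1 read. Each read stood for 1.25 normalized counts in the 500 μg/L library and for 1.09 in the 5 μg/L library, and named mRNA genes held 22186369 reads in the 500 μg/L library against 25125399 in the 5 μg/L library. A ratio given below is the normalized count at 500 μg/L divided by that at 5 μg/L, and its 95% interval was derived from the split of the gene's reads between both libraries by the exact method of Clopper and Pearson. These intervals cover counting error only, since reads were counted without molecular identifiers and nothing in them reflects the spread between larvae, pools or library preparations. Values given at both doses are normalized counts. A gene is called higher with a ratio of at least 2 and lower with a ratio of at most 0.5, which is a rule of size and not a test.

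By this rule 1309 genes (7.39%) were higher at 500 μg/L, 726 genes (4.10%) were lower, and 15672 lay between. The median log2 ratio over all 17707 genes was -0.01, with quartiles of -0.35 and 0.38. More genes were higher than lower at each larger fold as well. At least 3-fold, 509 genes were higher and 197 lower, and at least 10-fold, 82 were higher and 21 lower. When only the 13449 genes that reached 100 normalized counts in a library were considered, 37 were at least 10-fold higher and 1 was at least 10-fold lower. The whole counting interval lay beyond 2-fold for 651 of the higher genes and 186 of the lower ones. Of the genes nearest to the 2-fold lines, LOC564528 had a ratio of 2.001 and jak3 of 1.9998 on the upper side, while LOC100537799 had a ratio of 0.49995 and accs of 0.5002 on the lower side. At the count minimum, 62 genes just inside had 10.9 normalized counts (10 reads at 5 μg/L) and 70 genes just outside had 9.99 (8 reads at 500 μg/L).

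**Figure D1:**
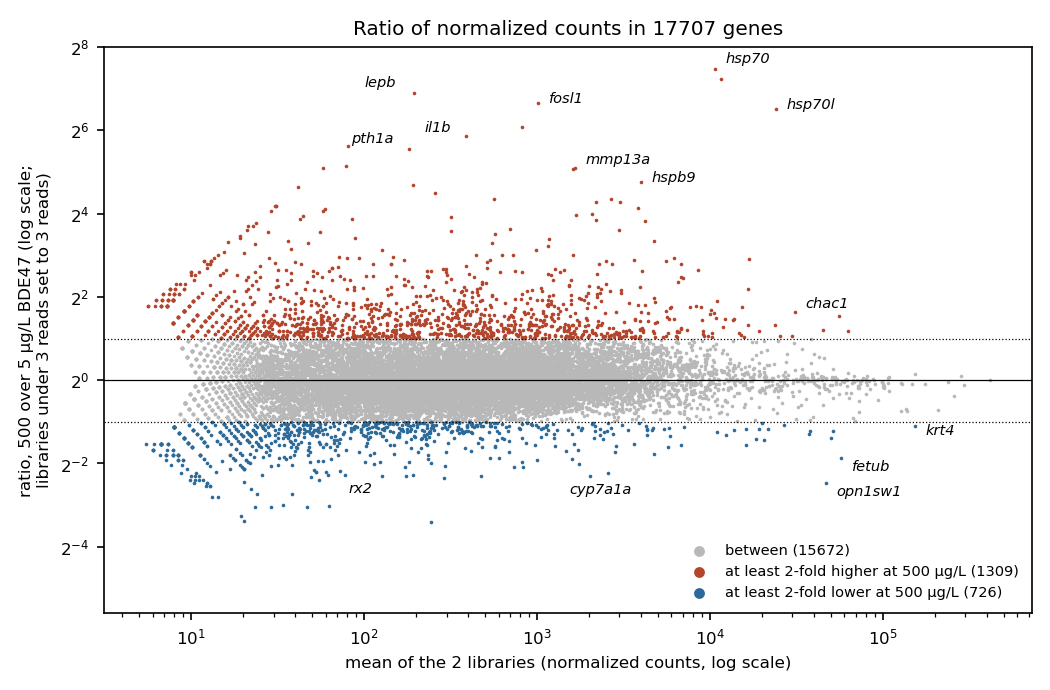
Ratio of normalized counts, 500 over 5 μg/L BDE47, against the mean of the 2 libraries, both on log scales, with 1 point for each of 17707 genes. Dotted lines mark 2-fold, and the genes far above the upper line, among them hsp70 and hsp70l, are more numerous and farther out than those below the lower line, among them opn1sw1 and fetub.

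The share of genes past 2-fold depended on abundance. Among 243 genes with a mean under 10 normalized counts, 39.1% were higher and 32.9% lower. The share of higher genes was smallest, 4.91%, among 5073 genes with a mean of 300 to 1000 (1.71% lower), and that of lower genes, 1.51%, among 2787 genes with a mean of 1000 to 3000 (6.21% higher). The shares were 7.65% higher and 4.75% lower among the 379 genes with a mean of at least 10000, where the median half-width of the interval was 0.03 on the log2 scale. In the 4603 genes that reached 1000 normalized counts in a library the log2 ratios had a width of 0.50 (SD from the median absolute deviation), and 354 of these genes were higher and 92 lower. The median half-width of the counting interval at 1000 to 3000 normalized counts was 0.11, so the spread of well counted genes was wider than counting error. The spread between pools of larvae at the same dose was not measured.

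**Figure D2:**
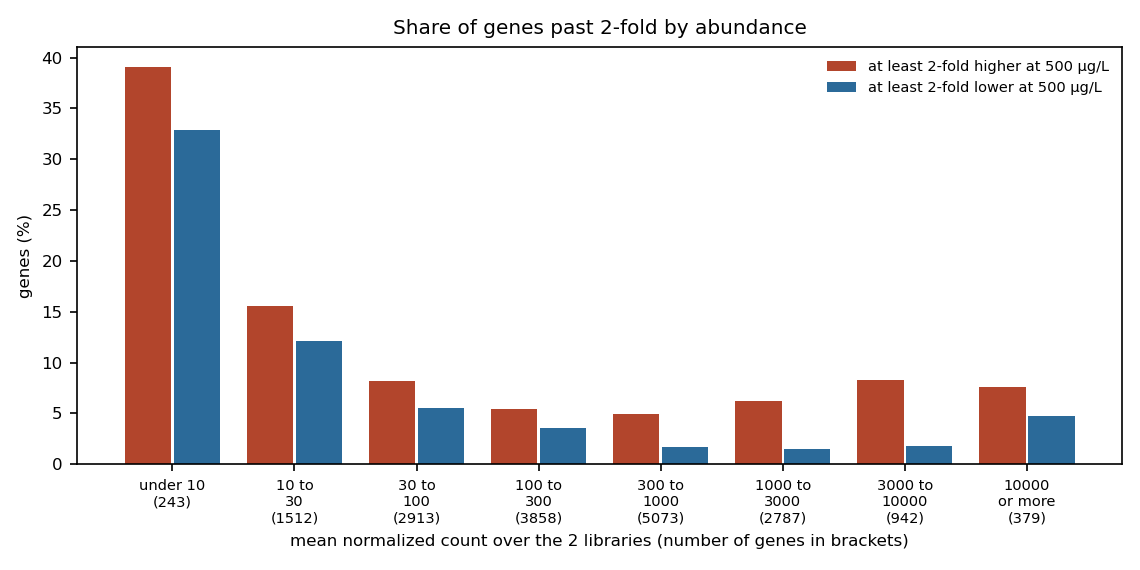
Percent of genes at least 2-fold higher or at least 2-fold lower at 500 than at 5 μg/L BDE47, by mean normalized count, with the number of genes in brackets. Both shares fall from 39.1% and 32.9% in the lowest class to 4.91% and 1.71% at a mean of 300 to 1000, and the share of higher genes exceeds that of lower genes in every class.

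Tissue markers were compared between the libraries. Of 55 markers listed for 18 cell types, 52 were found, with none at 0 in both libraries. The markers mmp13a and opn1sw1 were already reported by the study as changed at 500 μg/L, so they were not chosen blind to these data. The bone marker bglap had 3.75 at 500 μg/L and no read at 5 μg/L. The summed markers of skeletal muscle had a ratio of 0.982, those of lens 0.979, rods 1.04, intestine 1.09, glia 0.922, liver 0.894 and neurons 0.808. Marker sums were lowest for cones (39464 at 500 μg/L against 135994 at 5 μg/L, ratio 0.290), cartilage (0.417), bone (0.448), notochord (0.534), skin (0.543) and exocrine pancreas (0.592). They were highest for neutrophils (6568 at 500 μg/L against 2115 at 5 μg/L, ratio 3.11), ionocytes (2.35), red cells (1.86), macrophages (1.72) and pigment cells (1.52). Of the cone sum, opn1sw1 made up 14324 at 500 μg/L and 79480 at 5 μg/L (ratio 0.180). The other cone markers, opn1mw1 and gnat2, had ratios of 0.445 and 0.444, and the 19 cone genes separated below summed to a ratio of 0.584. The neutrophil sum rested largely on mmp13a (ratio 34.2), while the other markers of these cells, mpx and lyz, had ratios of 3.03 and 1.30. The notochord sum rested on shha (ratio 0.888) and col9a1 (0.389), which is also a cartilage collagen, and the bone sum almost wholly on col10a1. In whole larvae, fewer cells of a type and less RNA per cell cannot be told apart. Within the liver the 3 markers did not agree in direction, with ratios of 0.472 for fabp10a, 1.00 for tfa and 3.04 for fgb. Sums near 1 elsewhere also joined markers on both sides of 1. Single ratios ran from 0.912 to 1.57 for rods, 0.648 to 1.34 for intestine, 0.748 to 1.24 for lens and 0.817 to 1.14 for glia.

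The 12 highest ratios above a minimum of 100 normalized counts included inducible heat shock proteins, cytokines, leptins, the AP-1 factor fosl1, the collagenase mmp13a, a parathyroid hormone and the uncharacterized LOC570585. Of the inducible cytosolic Hsp70 chaperones, which refold damaged proteins, hsp70 had 21408 at 500 μg/L against 121 at 5 μg/L (ratio 176, interval 146 to 215). LOC100535101, annotated as hsp70.2, had 23096 at 500 μg/L against 153 at 5 μg/L (ratio 151), and hsp70l, the form used as a heat shock reporter in zebrafish, had 47595 at 500 μg/L against 519 at 5 μg/L (ratio 91.7, interval 83.7 to 101). LOC798846, annotated as hspa1b, had 1619 at 500 μg/L against 24 at 5 μg/L (ratio 67.3). These genes belong to a single family and their sequences were not compared, so how reads were divided among them is uncertain. The lowest of the 4 ratios was 67.3.

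Fosl1, a Fos-related partner of Jun in AP-1, followed with 1998 at 500 μg/L against 19.7 at 5 μg/L (ratio 102, interval 64 to 172). The proinflammatory cytokine il1b had 761 at 500 μg/L against 13.1 at 5 μg/L (ratio 58, interval 33 to 113), and mmp13a, a collagenase of myeloid cells, had 3219 at 500 μg/L against 94 at 5 μg/L (ratio 34.2, interval 27.6 to 43). Pth1a, a parathyroid hormone that mobilises calcium, had 356 at 500 μg/L against 7.65 at 5 μg/L (ratio 46.5, interval 22.3 to 117). Each of these genes was present but scarce at 5 μg/L, pth1a with 7 reads there and il1b with 12. The other 4 genes of this group had 4 reads or fewer at 5 μg/L.

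Lepb, a leptin hormone, had 391 normalized counts (313 reads) at 500 μg/L against no read at 5 μg/L. Computed against a floor of 3 reads its ratio was 119, which is not a lower bound. Its paralogue lepa had 112 at 500 μg/L against 3.28 at 5 μg/L (3 reads), a ratio of 34.3 with an interval of 11.4 to 169. LOC570404, annotated as the interleukin gene il11a, had 161 at 500 μg/L against no read at 5 μg/L, a ratio of 49.1 against the same floor. LOC570585, a gene with no assigned function, had 154 at 500 μg/L against 4.37 at 5 μg/L (4 reads, interval 13.4 to 131).

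**Figure D3:**
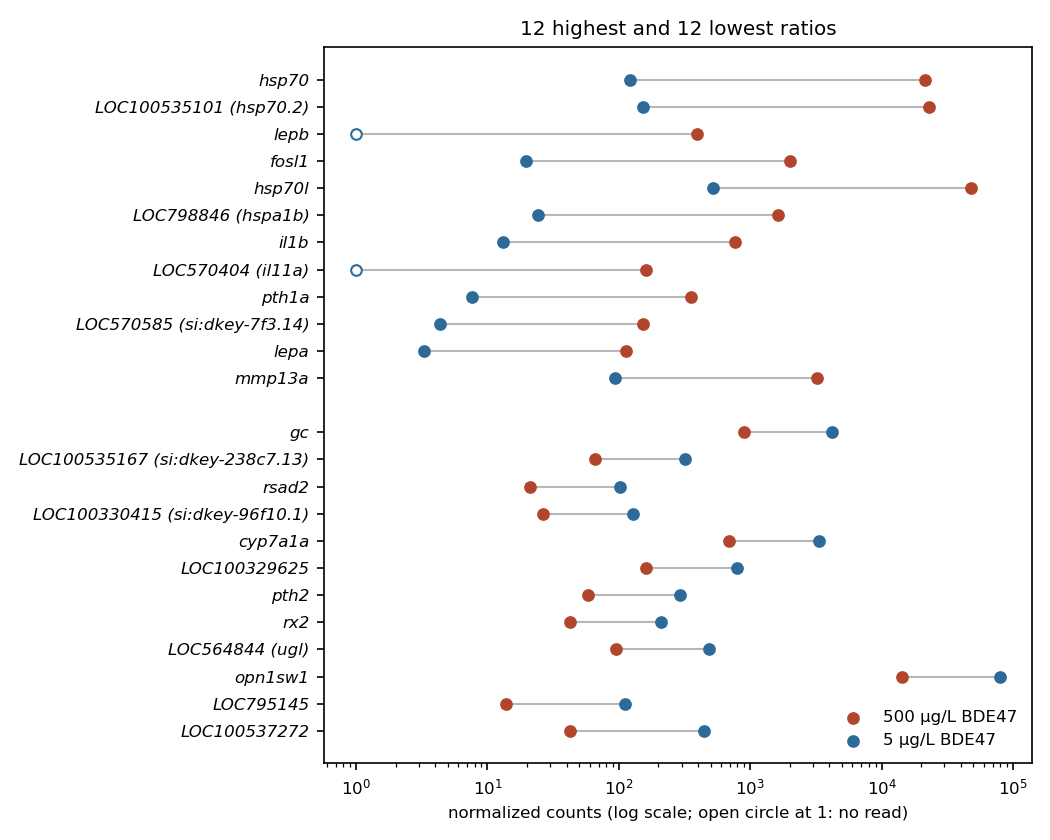
Normalized counts at 500 and at 5 μg/L BDE47, on a log scale, of the 12 genes with the highest and the 12 with the lowest ratio above a minimum of 100 normalized counts in 1 or both libraries. An open circle at 1 stands for no read, as for lepb and LOC570404 at 5 μg/L, and the upper genes are separated by wider gaps than the lower genes, of which opn1sw1 is by far the most abundant.

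The 12 lowest ratios were smaller in size, and 1 gene in this abundance range was past 10-fold. That gene was LOC100537272, described as a macrophage mannose receptor-like lectin, with 42.5 at 500 μg/L against 447 at 5 μg/L (ratio 0.0950, interval 0.0649 to 0.135). Opn1sw1, the ultraviolet-sensitive cone opsin, had 14324 at 500 μg/L against 79480.0 at 5 μg/L (ratio 0.180, interval 0.177 to 0.184) and was the only gene of the 12 with more than 10000 normalized counts. Rx2, a retinal homeobox gene of photoreceptors and Müller glia, had 42.5 at 500 μg/L against 211 at 5 μg/L (ratio 0.201, interval 0.136 to 0.291).

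Cyp7a1a, which catalyses the first and rate-limiting step of bile acid synthesis, had 687 at 500 μg/L against 3367 at 5 μg/L (ratio 0.204, interval 0.186 to 0.224), and gc, the vitamin D binding protein of plasma, had 902 at 500 μg/L against 4225 at 5 μg/L (ratio 0.213). Pth2, the tuberoinfundibular peptide of the parathyroid hormone family, had 58.7 at 500 μg/L against 289.7 at 5 μg/L (ratio 0.203), opposite to pth1a. LOC564844, described as malate synthase-like, an enzyme of the glyoxylate cycle, had 94.9 at 500 μg/L against 486 at 5 μg/L, and LOC100330415, described as a 6-phosphofructo-2-kinase/fructose-2,6-biphosphatase-like enzyme, had 26.2 at 500 μg/L against 128 at 5 μg/L. Rsad2 (viperin), an interferon-induced antiviral enzyme, had 21.2 at 500 μg/L against 103 at 5 μg/L (ratio 0.207, interval 0.116 to 0.349). LOC795145, LOC100329625 and LOC100535167 have no described function and had ratios of 0.123, 0.203 and 0.207.

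The most abundant genes differed little by comparison. Fast muscle myosin myhz1 had a ratio of 1.00 (417374 at 500 μg/L against 415636 at 5 μg/L), the elongation factor ef1a 0.928, the muscle calcium buffers pvalb2 and pvalb1 1.06 and 0.939, the myosin light chain mylz2 0.964, tpt1 1.11 and the constitutive cytosolic chaperone hsp90ab1 0.933. The trypsins LOC100535672 and try had ratios of 0.774 and 0.611. Krt4, a keratin of the larval skin surface, was the only gene among the 10 past 2-fold, with 97549 at 500 μg/L against 210583 at 5 μg/L (ratio 0.463). The 10 most abundant genes of each library took 7.99% of its reads at 500 μg/L and 9.20% at 5 μg/L.

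In normalized counts gained, the largest difference was for pdk2, a kinase that shuts off pyruvate dehydrogenase, with 83314 at 500 μg/L against 28533 at 5 μg/L (ratio 2.92). It was followed by the cathepsin ctsl1a with 87005 at 500 μg/L against 38296 at 5 μg/L, by hsp70l, by the polyubiquitin gene ubb with 63246 at 500 μg/L against 27258 at 5 μg/L, by chac1, an Atf4-induced enzyme that degrades glutathione, with 46868 at 500 μg/L against 15038 at 5 μg/L, and by angiotensinogen (agt) with 29812 at 500 μg/L against 3993 at 5 μg/L. The largest losses were those of krt4, of try, of chymotrypsinogen ctrb1 with 102477 at 500 μg/L against 172433 at 5 μg/L, of fetub, a liver-secreted protease inhibitor, with 24376 at 500 μg/L against 89779.8 at 5 μg/L (ratio 0.272), of LOC100535672, of the skin keratin cyt1 with 104090.0 at 500 μg/L against 169249 at 5 μg/L and of opn1sw1.

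Gene lists were described by the number of their genes past 2-fold and by their median log2 ratio after 1 normalized count was added to both values, beside 7.39% higher, 4.10% lower and a median of -0.01 over all genes. Of 96 lists, 17 had a median of at least 0.5 and 4 a median of at most -0.5. The highest median, 2.36, was that of a list of 10 RT-qPCR targets, of which 7 were higher and 3 lower. These targets had been picked on the same libraries, so their direction is not independent evidence. The next medians were those of the Hsp70 family (1.67), AP-1 and Atf genes (1.66) and small heat shock proteins (1.31). The lowest were those of collagens (-0.75), exocrine pancreas enzymes (-0.75) and cadherins and protocadherins (-0.54).

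**Figure D4:**
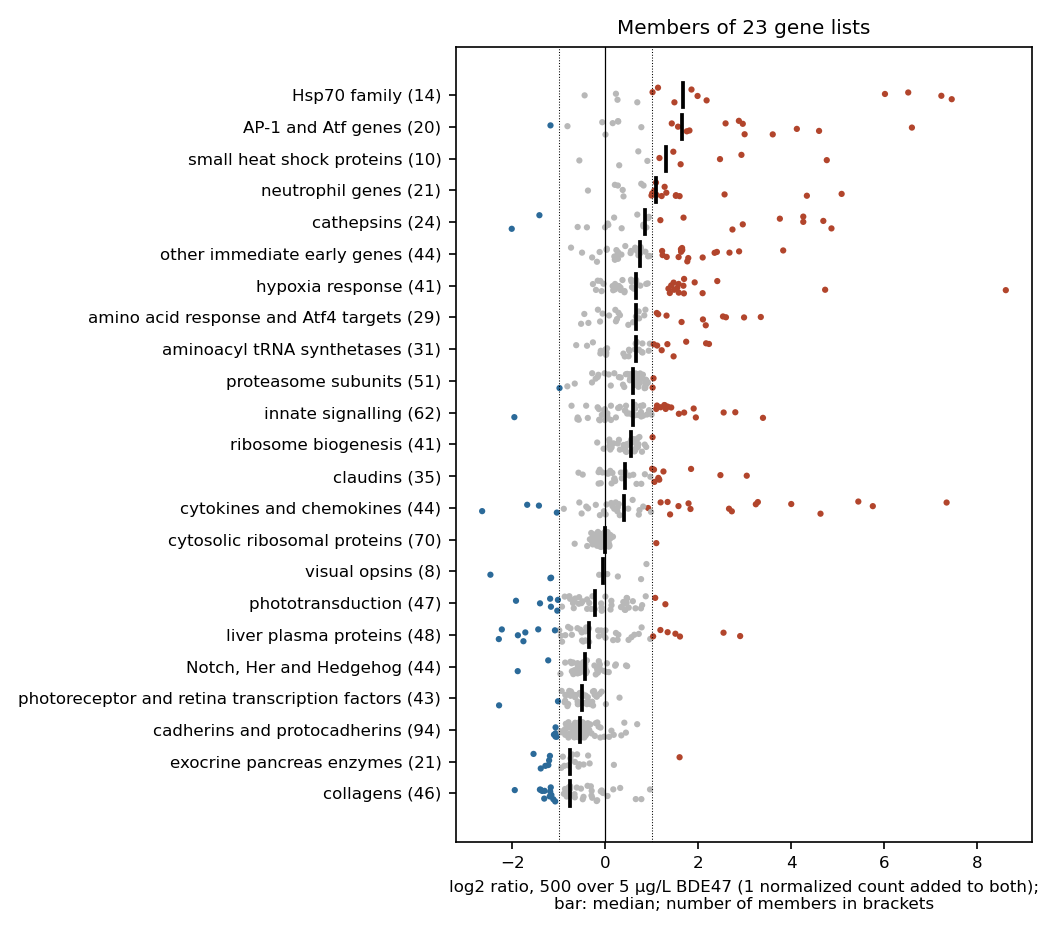
Log2 ratio, 500 over 5 μg/L BDE47 (1 normalized count added to both), of every gene in 23 lists, ordered by the median (black bar), with genes past 2-fold coloured and dotted lines at 2-fold. The Hsp70, AP-1, small heat shock protein and neutrophil lists have medians above 1, the cytosolic ribosomal proteins cluster at 0, and the collagens and exocrine pancreas enzymes lie mostly below 0.

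Chaperones differed by class. In the Hsp70 family 10 of 14 genes were higher and 0 lower. Beyond the inducible copies, the ER chaperone hspa5 (BiP) had 7618 at 500 μg/L against 1925 at 5 μg/L (ratio 3.96), the mitochondrial hspa9 had 20145 at 500 μg/L against 9186 at 5 μg/L (ratio 2.19) and hspa4a, a nucleotide exchange factor, had 3824 at 500 μg/L against 844 at 5 μg/L (ratio 4.53). The constitutive hspa8 had a ratio of 1.20 (56439.9 at 500 μg/L against 47075 at 5 μg/L). Of the small heat shock proteins, holdases that keep unfolded proteins soluble, 6 of 10 were higher and none lower. Hspb9 had 7746 at 500 μg/L against 284 at 5 μg/L (ratio 27.3, interval 24.1 to 31), hspb11 10994 at 500 μg/L against 1444 at 5 μg/L (ratio 7.61), hspb6 397 at 500 μg/L against 71.1 at 5 μg/L and hspb8 2518 at 500 μg/L against 819 at 5 μg/L.

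The Hsp90, Hsp60 and cochaperone list had 8 of 29 genes higher and 0 lower (median 0.28). The inducible hsp90a had 27161 at 500 μg/L against 5979 at 5 μg/L (ratio 4.54), against a ratio of 0.933 for its constitutive paralogue hsp90ab1. Fkbp5, a cochaperone induced by glucocorticoids, had 11758 at 500 μg/L against 2151 at 5 μg/L (ratio 5.47). The mitochondrial chaperonin pair hspd1 and hspe1 had ratios of 2.70 and 2.18. Among the Hsp40 cochaperones 4 of 42 were higher, led by dnaja (2044 at 500 μg/L against 357 at 5 μg/L) and dnajb1b (3711 at 500 μg/L against 794 at 5 μg/L), and the rest stayed between the lines. All 8 subunits of the cytosolic chaperonin TRiC lay between ratios of 1.09 and 1.30. In the Hsp70 and Hsp90 families the largest ratios thus belonged to inducible genes, and hspa8 and hsp90ab1, the constitutive ones, were close to 1.

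Immediate early transcription factors, which are switched on within minutes of a stimulus, were among the highest lists. In the AP-1 and Atf list 12 of 20 genes were higher and 1 lower. Besides fosl1, fosb had 367 at 500 μg/L against 14.2 at 5 μg/L (ratio 25.8, interval 14.9 to 49.1), fos 5477 at 500 μg/L against 450.4 at 5 μg/L (ratio 12.2) and atf3, a repressor induced by many stresses, 7218 at 500 μg/L against 414 at 5 μg/L (ratio 17.4, interval 15.7 to 19.4). Of the Jun genes, junbl had 6436 at 500 μg/L against 878 at 5 μg/L (ratio 7.33), junb 2342 at 500 μg/L against 389 at 5 μg/L, jun 9212 at 500 μg/L against 2734 at 5 μg/L and jund 609.6 at 500 μg/L against 206 at 5 μg/L. Every Fos and Jun gene in the list was higher, while the Atf genes atf1, atf7a and atf7b had ratios of 1.21, 0.955 and 1.00. Maf, a developmental relative, was the lower gene, with 222 at 500 μg/L against 505 at 5 μg/L.

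Among other immediate early genes 17 of 44 were higher and 0 lower (median 0.76). Npas4, induced by neuronal activity, had 7889 at 500 μg/L against 555 at 5 μg/L (ratio 14.2), the orphan nuclear receptors nr4a1 and nr4a3 had ratios of 6.38 and 5.13, and gadd45ba, a growth arrest gene, had 11875 at 500 μg/L against 3498 at 5 μg/L (ratio 3.39). The antiproliferative gene btg2 had 3774 at 500 μg/L against 883 at 5 μg/L (ratio 4.27). Nr4a2a and nr4a2b, of the same receptor family as nr4a1, had ratios of 0.706 and 0.918. Dusp phosphatases that switch off MAP kinases were also higher, with dusp1 (6052 at 500 μg/L against 1960.0 at 5 μg/L, ratio 3.09), and dusp4 and dusp5 having ratios of 3.10 and 3.14. In the whole list of Fgf and MAPK feedback genes 8 of 63 were higher and 6 lower.

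Of p53 targets, 7 of 27 were higher and 0 lower (median 0.47). Sesn2, a stress-induced inhibitor of mTORC1, had 693 at 500 μg/L against 119 at 5 μg/L (ratio 5.82, interval 4.73 to 7.21), and cdkn1a (p21), which blocks the cell cycle, had 591 at 500 μg/L against 137 at 5 μg/L (ratio 4.32). The apoptosis gene baxa had 2834 at 500 μg/L against 1130.3 at 5 μg/L (ratio 2.51) and pmaip1 (Noxa) 142 at 500 μg/L against 59 at 5 μg/L. The most counted targets, sesn1 and ccng1, had ratios of 0.930 and 1.29, so the sestrins differed among themselves.

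Targets of Atf4, which responds to amino acid shortage, were higher in 10 of 29 cases and lower in 0 (median 0.66). Cebpb, a partner of Atf4, had 8702 at 500 μg/L against 856 at 5 μg/L (ratio 10.2, interval 9.44 to 11), the serine and folate enzyme mthfd2 had 421 at 500 μg/L against 68.9 at 5 μg/L (ratio 6.11), asparagine synthetase (asns) had 1533 at 500 μg/L against 342 at 5 μg/L (ratio 4.48), and the pseudokinase trib3 had 4993 at 500 μg/L against 1164 at 5 μg/L (ratio 4.29). Fgf21, a fasting hormone, had 67.5 at 500 μg/L against 7.65 at 5 μg/L (ratio 8.82, interval 4.00 to 23). The amino acid transporter subunit slc3a2 had a ratio of 0.924. In the unfolded protein response of the ER 7 of 33 genes were higher and 0 lower, among them the transcription factor xbp1 (13126 at 500 μg/L against 4800.1 at 5 μg/L, ratio 2.73), manf (692 at 500 μg/L against 197 at 5 μg/L) and creld2 (259.8 at 500 μg/L against 101 at 5 μg/L).

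Aminoacyl tRNA synthetases, which load tRNAs with amino acids, had a median of 0.65, with 8 of 31 higher. When the list was divided after its values were seen, all 19 cytosolic enzymes had ratios above 1, from 1.03 for dars to 4.69 for tars, with a median of 0.93. Tars had 6473 at 500 μg/L against 1379.6 at 5 μg/L, yars 4982 at 500 μg/L against 1108 at 5 μg/L and kars 20384 at 500 μg/L against 7366 at 5 μg/L. The 12 mitochondrial enzymes had a median of 0.01, with 7 above 1 and none past 2-fold. Ribosome biogenesis genes differed by a smaller amount and nearly all in the same direction, with 39 of 41 above a ratio of 1, a median of 0.56 and only rrs1 past 2-fold (1305 at 500 μg/L against 645 at 5 μg/L). The nucleolar proteins fbl and gnl3 had ratios of 1.73 and 1.62, and ncl, the most counted after ddx21, 0.886. The 70 cytosolic ribosomal proteins had a median of -0.01.

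Proteasome genes, which encode the protease that destroys ubiquitin-tagged proteins, also had moderate differences in a common direction. Of 51 proteasome genes 42 had a ratio above 1, and the median was 0.60, while only psmc1b (3739 at 500 μg/L against 1822 at 5 μg/L) and psmb3 (4911 at 500 μg/L against 2426 at 5 μg/L) were at least 2-fold higher. Genes of the immunoproteasome lay below 1, with ratios of 0.626 for psmb8 and 0.481 for psmb9a at low counts and 0.891 and 0.865 for the activators psme1 and psme2. Ubb had a ratio of 2.32, while the ubiquitin fusion gene rps27a had 0.968. Sqstm1 (p62), an autophagy receptor, had 12872 at 500 μg/L against 3751 at 5 μg/L (ratio 3.43), and optn, another receptor, had 5761 at 500 μg/L against 2169.9 at 5 μg/L. In the lysosome and autophagy list as a whole 2 of 60 genes were higher and 0 lower (median 0.24).

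Cathepsins, the lysosomal proteases, were higher in 9 of 24 cases and lower in 2 (median 0.85). The abundant ctsl1a had a ratio of 2.27 and ctsd of 1.91. Ctsl had 10055 at 500 μg/L against 26873 at 5 μg/L (ratio 0.374) and ctsbb 695 at 500 μg/L against 2807 at 5 μg/L (ratio 0.247). The largest ratios belonged to scarce cathepsin L-like copies. MGC174152 had 81.2 at 500 μg/L against 2.19 at 5 μg/L (2 reads, ratio 37.1, interval 9.88 to 313). MGC174155, LOC100537665 and MGC174857 each had 60.0 at 500 μg/L against 2.19, 2.19 and 1.09 at 5 μg/L, with lower interval bounds of 7.19, 7.19 and 9.39. Their values at 500 μg/L were equal, and reads may have been divided or shared among these copies, whose sequences were not compared.

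Genes of the hypoxia response were higher in 16 of 41 cases and lower in none (median 0.66). Apart from the leptins, the oxygen sensor egln3 had 289 at 500 μg/L against 53.6 at 5 μg/L (ratio 5.39), the glycolytic regulator pfkfb3 3216 at 500 μg/L against 753 at 5 μg/L (ratio 4.27), hexokinase hk2 761 at 500 μg/L against 200.1 at 5 μg/L and igfbp1b, which restrains growth in hypoxia, 15419 at 500 μg/L against 4777 at 5 μg/L (ratio 3.23). Pdk1 and slc2a1a, also targets of Hif1, had ratios of 0.831 and 0.892. The glycolysis and gluconeogenesis list differed from it, as 1 of 52 genes was higher and 5 lower (median -0.07). Its lower genes included liver enzymes, with pklr (2833 at 500 μg/L against 8549.7 at 5 μg/L, ratio 0.331), glycogen synthase gys2 (817 at 500 μg/L against 2618 at 5 μg/L, ratio 0.312) and glycogen phosphorylase pygl (1177 at 500 μg/L against 3090.4 at 5 μg/L).

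In fatty acid oxidation and Ppar targets 4 of 34 genes were higher and 1 lower. Besides pdk2, the uncoupling proteins ucp3 and ucp2 had 10979 at 500 μg/L against 2159 at 5 μg/L (ratio 5.09) and 23619 at 500 μg/L against 6971 at 5 μg/L (ratio 3.39), and cpt1b, which admits fatty acids to mitochondria, had 666 at 500 μg/L against 289.7 at 5 μg/L. Ucp1 lay the other way, with 46739.7 at 500 μg/L against 92037 at 5 μg/L (ratio 0.508), just inside 2-fold. The fatty acid synthesis and storage list had 8 of 34 genes higher and 1 lower. The desaturase scd had 141 at 500 μg/L against 18.6 at 5 μg/L (ratio 7.60), the lipid droplet protein plin2 455 at 500 μg/L against 120.2 at 5 μg/L (ratio 3.78) and the endothelial lipase lipg 2543 at 500 μg/L against 528 at 5 μg/L, while the desaturase fads2 had 261 at 500 μg/L against 950.0 at 5 μg/L (ratio 0.275). Among cholesterol genes the cholesterol hydroxylase ch25h had 166 at 500 μg/L against 21.9 at 5 μg/L (ratio 7.60), hmgcra, the rate-limiting enzyme of synthesis, 563 at 500 μg/L against 149 at 5 μg/L (ratio 3.79) and srebf2 a ratio of 1.44.

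Responses classically tied to xenobiotics were uneven. Of 14 aryl hydrocarbon receptor and Cyp1 genes none was past 2-fold in either direction, and cyp1a, the standard target of that receptor, had 4251 at 500 μg/L against 2551 at 5 μg/L (ratio 1.67, interval 1.58 to 1.76). In the Nrf2 and antioxidant list 5 of 39 genes were higher and 2 lower. The glutathione genes gclm (1733 at 500 μg/L against 703 at 5 μg/L), gss (563 at 500 μg/L against 237 at 5 μg/L), gpx1b (2972 at 500 μg/L against 783 at 5 μg/L) and gstp2 (1420.4 at 500 μg/L against 436 at 5 μg/L) were higher, whereas heme oxygenase hmox1 had 932 at 500 μg/L against 2278 at 5 μg/L (ratio 0.409) and catalase (cat) 2751 at 500 μg/L against 4977 at 5 μg/L. Nfe2l2, the gene of Nrf2 itself, had a ratio of 1.71.

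Of Cyp2 and Cyp3 genes 6 of 41 were higher and 2 lower. Cyp2k18 had 1398 at 500 μg/L against 233 at 5 μg/L (ratio 6.00), cyp2k6 738 at 500 μg/L against 161 at 5 μg/L (ratio 4.59) and cyp3c1l2 9033 at 500 μg/L against 2704 at 5 μg/L (ratio 3.34). Cyp2ad2 was lower, with 1303 at 500 μg/L against 4317 at 5 μg/L (ratio 0.302). Cyp3a65, the most counted, had a ratio of 0.900. Among conjugating enzymes 10 of 60 were higher and 1 lower, and the glucuronosyl transferases ugt5a1, ugt5a2 and ugt5a4 had ratios of 6.20, 7.41 and 6.43. The bile salt export pump abcb11b had 231 at 500 μg/L against 839.6 at 5 μg/L (ratio 0.275) and abcg2a 2046 at 500 μg/L against 4707 at 5 μg/L (ratio 0.435).

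Inflammatory genes were among the largest differences. Cytokines and chemokines were higher in 16 of 44 cases and lower in 4 (median 0.40). In addition to il1b and il11a, the neutrophil attractant il8 had 676 at 500 μg/L against 102 at 5 μg/L (ratio 6.65, interval 5.33 to 8.38), csf3, the growth factor of neutrophils, 53.7 at 500 μg/L against 7.65 at 5 μg/L (interval 3.13 to 18.5), tnfb 162 at 500 μg/L against 61.2 at 5 μg/L and il22 68.7 at 500 μg/L against 18.6 at 5 μg/L. The death ligand tnfsf10l2 lay below, with 319.8 at 500 μg/L against 863 at 5 μg/L (ratio 0.371). Among their receptors 16 of 54 were higher, with il4r (736 at 500 μg/L against 178 at 5 μg/L, ratio 4.13) and the shared subunit il6st (1859 at 500 μg/L against 791 at 5 μg/L).

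In innate signalling 15 of 62 genes were higher and 1 lower (median 0.60). Ptgs2b and ptgs2a, the inducible cyclooxygenases of prostaglandin synthesis, had 2142 at 500 μg/L against 203 at 5 μg/L (ratio 10.5) and 3801 at 500 μg/L against 650.4 at 5 μg/L (ratio 5.84). Socs3a, a feedback inhibitor induced by Stat3, had 11900.1 at 500 μg/L against 1713 at 5 μg/L (ratio 6.95), socs3b 3688 at 500 μg/L against 987 at 5 μg/L and stat3 itself 3263 at 500 μg/L against 1221 at 5 μg/L (ratio 2.67). Tlr5a, a flagellin receptor, had 205 at 500 μg/L against 67.8 at 5 μg/L, and nfkbiab, the inhibitor of NF-κB, 5625 at 500 μg/L against 2861 at 5 μg/L. Irf1, an interferon regulatory factor, was the lower gene, with 12.5 at 500 μg/L against 51.4 at 5 μg/L (interval 0.110 to 0.488).

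Interferon response genes did not share a single direction, with 4 of 38 higher and 6 lower (median 0.11). Isg15, a ubiquitin-like modifier, had 843 at 500 μg/L against 166 at 5 μg/L (ratio 5.07) and irf7 1284 at 500 μg/L against 332 at 5 μg/L (ratio 3.86). Besides rsad2, the lower genes included ifit2 (26.2 at 500 μg/L against 119 at 5 μg/L, ratio 0.220). Stat1a, the most counted, had a ratio of 1.23.

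Neutrophil genes were higher in 14 of 21 cases and lower in none (median 1.09). The list was drawn up with genes not particular to neutrophils as well, among them the chemokine receptor cxcr4b and the alpha globin hbaa1. Mmp9, the gelatinase of neutrophil granules that is also made by wounded epithelium, had 5094 at 500 μg/L against 251 at 5 μg/L (ratio 20.3, interval 17.7 to 23.2), the myeloperoxidase mpx 1275 at 500 μg/L against 421 at 5 μg/L (ratio 3.03), and the NADPH oxidase subunits cybb and cyba 503 at 500 μg/L against 175 at 5 μg/L and 1158 at 500 μg/L against 499.6 at 5 μg/L. Lysozyme (lyz) had a smaller ratio of 1.30 (2074 at 500 μg/L against 1600.4 at 5 μg/L). The summed neutrophil markers, at a ratio of 3.11, and macrophage markers, at 1.72, were higher beside the cytokine, receptor and innate signalling lists. The neutrophil sum rested largely on mmp13a (34.2), and the macrophage markers marco, csf1ra and mpeg1 had ratios of 4.00, 1.55 and 1.30. The part of cell number in those lists was not tested. Of macrophage genes 6 of 26 were higher and 2 lower: mfap4 had 884 at 500 μg/L against 219.7 at 5 μg/L (ratio 4.03) and the pan-macrophage gene mpeg1 a ratio of 1.30, while the antigen presentation genes cd74 and iclp1 had 91.2 at 500 μg/L against 282 at 5 μg/L and 99.9 at 500 μg/L against 368 at 5 μg/L.

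The acute phase list mixed plasma proteins that the liver makes in inflammation with neutrophil genes such as lyz and with timp2b. In it 12 of 27 genes were higher and 2 lower. Itln3, an intelectin that binds microbial sugars, had 1074 at 500 μg/L against 52.5 at 5 μg/L (ratio 20.5), timp2b, an inhibitor of metalloproteinases, 3893 at 500 μg/L against 246 at 5 μg/L (ratio 15.8) and lect2l, a chemotactic factor, 4767 at 500 μg/L against 689.8 at 5 μg/L (ratio 6.91). Agt had a ratio of 7.47. The protease inhibitors a2ml and serpina1 lay below, with 2155 at 500 μg/L against 7311 at 5 μg/L (ratio 0.295) and 11123 at 500 μg/L against 30250.2 at 5 μg/L (ratio 0.368). Complement was divided as well (8 of 23 higher, 2 lower), with cfb (9181 at 500 μg/L against 4149.7 at 5 μg/L) and c6 (1514 at 500 μg/L against 558 at 5 μg/L), whereas c8b had 421 at 500 μg/L against 912 at 5 μg/L.

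Among coagulation genes and plasma serpins 9 of 26 were higher and 4 lower. The 3 fibrinogen chains were higher together: fga had 12746 at 500 μg/L against 5608 at 5 μg/L, fgb 15830.2 at 500 μg/L against 5201 at 5 μg/L and fgg 21288 at 500 μg/L against 10438 at 5 μg/L. The tissue factors f3a and f3b, which start clotting, had ratios of 2.21 and 2.64. The vitamin K-dependent factors differed from each other, with f9b (1879 at 500 μg/L against 531 at 5 μg/L, ratio 3.54), f7 (251 at 500 μg/L against 532 at 5 μg/L), f7i (105 at 500 μg/L against 362 at 5 μg/L, ratio 0.290) and f10 (486 at 500 μg/L against 1079 at 5 μg/L).

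Liver genes, mostly of plasma proteins, had a median of -0.35, with 7 of 48 higher and 7 lower. The lower group comprised cyp7a1a, gc, fetub, ahsg (319 at 500 μg/L against 1053 at 5 μg/L, ratio 0.303), a2ml, serpina1 and the liver fatty acid binding protein fabp10a (17266 at 500 μg/L against 36596 at 5 μg/L, ratio 0.472). The higher group comprised agt, the fibrinogens, hpx, serpina7 (LOC564060) and ivns1abpb. Of these, cyp7a1a encodes an enzyme of the liver cell and neither fabp10a nor ivns1abpb a plasma protein. Transferrin (tfa) had 39573 at 500 μg/L against 39484 at 5 μg/L, and the retinol carrier rbp4, as abundant as fetub at 5 μg/L, a ratio of 0.973. Genes of the liver list thus spanned ratios from 0.204 to 7.47. Nr0b2a, the bile acid-induced repressor Shp, had 319 at 500 μg/L against 1351 at 5 μg/L (ratio 0.236), and nr5a5, an Nr5a nuclear receptor, 639.6 at 500 μg/L against 1909 at 5 μg/L. Of the apolipoproteins, apoeb had 51059.5 at 500 μg/L against 25855 at 5 μg/L (ratio 1.97), LOC100004607, annotated as apoa4b.3, 4421 at 500 μg/L against 603 at 5 μg/L (ratio 7.33), apob 1873 at 500 μg/L against 5379 at 5 μg/L (ratio 0.348) and the abundant apobl a ratio of 0.948.

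Exocrine pancreas enzymes were low as a group, with 6 of 21 lower and 1 higher (median -0.75). Carboxypeptidase cpa1 had 8237 at 500 μg/L against 24034 at 5 μg/L (ratio 0.343), the elastases ela2l, ela3l and ela2 had ratios of 0.382, 0.409 and 0.428, and pancreatic amylase amy2a had 31058 at 500 μg/L against 71819 at 5 μg/L (ratio 0.432). Trypsin try had 159004 at 500 μg/L against 260272 at 5 μg/L (ratio 0.611). In the intestine 1 of 39 absorption and brush border genes was higher and 8 lower. The higher gene, the chloride exchanger slc26a3, had 159 at 500 μg/L against 10.9 at 5 μg/L (10 reads, ratio 14.5, interval 7.64 to 31). The bile acid binding protein fabp6 had 6543 at 500 μg/L against 15599.5 at 5 μg/L (ratio 0.419), the disaccharidases mgam and lct had 2709.6 at 500 μg/L against 5822 at 5 μg/L and 247 at 500 μg/L against 584 at 5 μg/L, and the peptide transporter slc15a1a (LOC100004272) 448 at 500 μg/L against 1274 at 5 μg/L. Apoa4 and the glucose transporter slc5a1 had ratios of 1.34 and 1.53.

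Of 38 skin genes 3 were higher and 3 lower, and 19 had a ratio above 1. The higher genes include cldnb and cldne, which are counted again among the claudins below. Krt4, cyt1, cyt1l and krt5 had ratios of 0.463, 0.615, 0.591 and 0.685, and icn2 (ictacalcin) had 3427 at 500 μg/L against 10126 at 5 μg/L (ratio 0.338). Of the other keratins, krt18, a keratin of simple epithelia, had 32362 at 500 μg/L against 16981 at 5 μg/L (ratio 1.91) and the adhesion protein epcam 17889 at 500 μg/L against 9342 at 5 μg/L (ratio 1.91). Claudins, which seal tight junctions, were higher in 10 of 35 cases and lower in none (median 0.43). Cldnb had 11599 at 500 μg/L against 2085 at 5 μg/L (ratio 5.56), cldnc 5300.4 at 500 μg/L against 1476 at 5 μg/L (ratio 3.59) and cldne 4843 at 500 μg/L against 2167 at 5 μg/L, while cldni, the most counted, had a ratio of 1.52. The skin marker sum given above consists of krt4, cyt1 and krt5.

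Ionocytes, the skin cells that take up ions from water, had 5 of 25 genes higher and 1 lower. The highest ratio of the list, 14.5, was that of slc26a3, which is counted in the intestine list as well. The sodium pump subunit atp1b1b had 16046 at 500 μg/L against 5682 at 5 μg/L (ratio 2.82), the ammonia transporter rhcg 1377 at 500 μg/L against 380.4 at 5 μg/L (ratio 3.62) and the calcium channel trpv6 2371 at 500 μg/L against 1000.2 at 5 μg/L (ratio 2.37). Gcm2, which specifies ionocytes and parathyroid tissue, had a ratio of 0.991. Of globins and red cell genes 4 of 35 were higher and 0 lower (median 0.53). The embryonic globins hbbe1, hbbe2 and hbae3 had ratios of 1.83, 2.08 and 1.58, and alas2, the first enzyme of heme synthesis in red cells, had 536 at 500 μg/L against 169 at 5 μg/L (ratio 3.16). Of 38 pigment genes 3 were higher and 2 lower, with the melanosome exchanger slc24a5 (91.2 at 500 μg/L against 15.3 at 5 μg/L, ratio 5.96) and the pteridine gene gch2 (321 at 500 μg/L against 108 at 5 μg/L). Xdh, an oxidase of purines and pteridines, was lower, with 1447 at 500 μg/L against 3451 at 5 μg/L.

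In the eye, of 8 visual opsins 3 were lower and none higher. The ultraviolet opsin opn1sw1 had a ratio of 0.180, the blue opsin opn1sw2 0.441 (9908 at 500 μg/L against 22481 at 5 μg/L) and the green opsin opn1mw1 0.445 (11863 at 500 μg/L against 26629.6 at 5 μg/L). The red opsin opn1lw1 had 199 at 500 μg/L against 107 at 5 μg/L (ratio 1.85), the red opsin opn1lw2 35684 at 500 μg/L against 34658 at 5 μg/L (ratio 1.03), the green opsin opn1mw2 2859 at 500 μg/L against 2372 at 5 μg/L (ratio 1.21) and rhodopsin (rho), the pigment of rods, 40251 at 500 μg/L against 44131 at 5 μg/L (ratio 0.912).

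Downstream of the opsins, 2 of 47 phototransduction genes were higher and 6 lower. When rod and cone genes were separated after the values were seen, the 19 cone genes (opsins included) had a median of -0.57, 7 were lower and 15 had a ratio below 1, while the 11 rod genes had a median of 0.41 and 9 had a ratio above 1. Of the transducin subunits, the cone gnat2 had 13278 at 500 μg/L against 29884 at 5 μg/L (ratio 0.444) and gnb3b 13103 at 500 μg/L against 26816 at 5 μg/L (ratio 0.489), whereas the rod gnat1 had 14456 at 500 μg/L against 9221 at 5 μg/L (ratio 1.57) and gngt1 9925 at 500 μg/L against 5733 at 5 μg/L (ratio 1.73). Cngb3.2 (LOC562466), annotated as a subunit of the cone cation channel, had 418 at 500 μg/L against 1588 at 5 μg/L (ratio 0.263). The cone phosphodiesterase subunits pde6c and pde6h had ratios of 0.763 and 0.712, against 1.51 and 1.35 for the rod subunits pde6a and pde6b. The cone arrestin arr3a, (29439 at 500 μg/L against 31060.2 at 5 μg/L), had a ratio of 0.948, so the cone genes did not differ by a common factor.

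**Figure D5:**
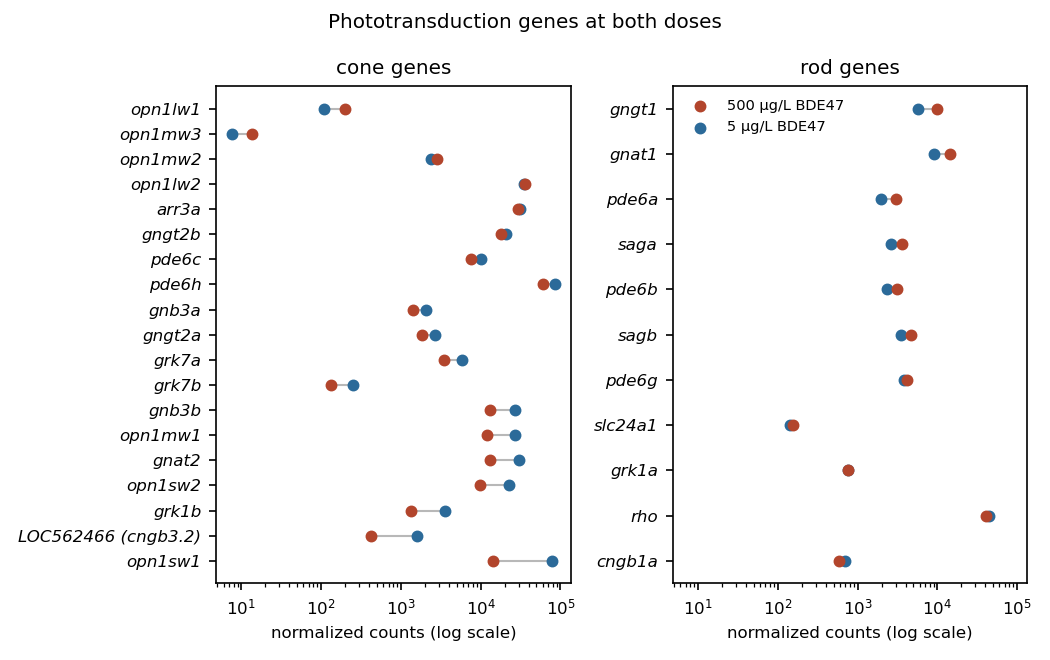
Normalized counts at 500 and at 5 μg/L BDE47, on a log scale, of 19 cone and 11 rod phototransduction genes, ordered by ratio. The cone genes range from a ratio of 1.85 for opn1lw1 to 0.180 for opn1sw1 and most lie below 1, while the rod genes range from 1.73 for gngt1 to 0.825 for cngb1a.

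Transcription factors of the retina had a median of -0.50, with 2 of 43 lower and none higher. Rx2 was the lowest, crx, which drives photoreceptor genes, had 1390.4 at 500 μg/L against 2817 at 5 μg/L (ratio 0.494), otx2 488 at 500 μg/L against 938 at 5 μg/L (ratio 0.521) and neurod 7113 at 500 μg/L against 13045 at 5 μg/L (ratio 0.545). Of visual cycle and retinoid genes 6 of 51 were higher and 4 lower. The isomerase rpe65a of the pigment epithelium had 768 at 500 μg/L against 235 at 5 μg/L (ratio 3.27), and rdh10b and rdh5, retinol dehydrogenases, had ratios of 2.70 and 1.69. The retinoid binding protein irbp between photoreceptors and epithelium had 8417 at 500 μg/L against 19279 at 5 μg/L (ratio 0.437) and rdh1 693 at 500 μg/L against 1804 at 5 μg/L (ratio 0.384). Exorh, the extraretinal rhodopsin of the pineal organ, had 45 at 500 μg/L against 107 at 5 μg/L (ratio 0.420, interval 0.278 to 0.621). Lens crystallins and other lens genes were near the background, with 2 of 51 higher, 1 lower and a median of 0.21.

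Skeletal matrix genes were low. Of 46 collagens 12 were lower and none higher. The cartilage collagens col2a1a (7096 at 500 μg/L against 17647 at 5 μg/L, ratio 0.402), col9a1 (ratio 0.389), col9a2 (0.436), col11a1a (0.443) and col11a2 (0.404) and the hypertrophic cartilage and bone collagen col10a1 (0.447) made up much of this group. The fibrillar collagens of skin and bone, col1a1a, col1a1b and col1a2, had ratios of 0.577, 0.631 and 0.591. The endothelial basement membrane collagens col4a1 and col4a2 had ratios of 1.13 and 0.947. The cartilage and bone marker sums given above consist largely of genes of these lists, col2a1a, matn1 and col10a1.

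The list of other cartilage and bone genes had 7 of 56 higher and 6 lower (median -0.36). Matn1 and lect1, of cartilage, had 3605 at 500 μg/L against 8045 at 5 μg/L (ratio 0.448) and 703 at 500 μg/L against 1610.2 at 5 μg/L (ratio 0.437), and entpd5a (LOC556849), needed for mineralisation in zebrafish, 45 at 500 μg/L against 183 at 5 μg/L (ratio 0.246). Higher were tnfsf11 (LOC100331628), the osteoclast factor Rankl, with 87.4 at 500 μg/L against 14.2 at 5 μg/L (ratio 6.15, interval 3.38 to 12.1), the tartrate-resistant phosphatase acp5a of osteoclasts, with 226 at 500 μg/L against 97.3 at 5 μg/L (ratio 2.32), and the crosslinking enzyme lox, with 588 at 500 μg/L against 156 at 5 μg/L (ratio 3.76). The collagen-degrading mmp13a and mmp9 had the largest ratios of the metalloproteinase list, in which 10 of 54 were higher and 5 lower, and the gelatinase mmp2 had 2592 at 500 μg/L against 4260.1 at 5 μg/L (ratio 0.608).

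Of parathyroid hormone, calcitonin and calcium genes 4 of 33 were higher and 2 lower. Pth1a (ratio 46.5) and pth2 (ratio 0.203) lay at opposite ends. Pthlh, a related hormone of cartilage, had 116 at 500 μg/L against 57.9 at 5 μg/L (ratio 2.01), calca, the gene of calcitonin, 1039 at 500 μg/L against 551 at 5 μg/L (ratio 1.89), and fgf23, which lowers phosphate, a ratio of 0.422. Cyp24a1, which inactivates vitamin D, had 24419.8 at 500 μg/L against 15362 at 5 μg/L (ratio 1.59), and the receptor pth1ra 42.5 at 500 μg/L against 73.2 at 5 μg/L.

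Hormones of the pituitary, hypothalamus and islets were higher in 19 of 82 cases and lower in 4 (median 0.54). This list also holds the leptin lepa, which had its highest finite ratio (34.3) and is counted in the hypoxia list as well. Cart3 (LOC557301), a peptide of the appetite circuit, had 5724 at 500 μg/L against 293 at 5 μg/L (ratio 19.5, interval 17.3 to 22.2), prolactin (prl) 587 at 500 μg/L against 169 at 5 μg/L (ratio 3.47), galanin (gal, LOC100006361) 476 at 500 μg/L against 128 at 5 μg/L (ratio 3.72) and urp1 (LOC100329524), a urotensin-related peptide, 538 at 500 μg/L against 120.2 at 5 μg/L. Insulin (ins) had 783 at 500 μg/L against 1056 at 5 μg/L (ratio 0.742), and insb, the second insulin gene, 55 at 500 μg/L against 8.75 at 5 μg/L (8 reads, interval 2.93 to 15.5). In the thyroid hormone axis 6 of 28 genes were higher and 2 lower (median 0.36). Serpina7, the thyroxine-binding globulin (LOC564060), had 1966 at 500 μg/L against 337 at 5 μg/L (ratio 5.84), klf9, a target of thyroid hormone and of glucocorticoids, 9553 at 500 μg/L against 3992 at 5 μg/L (ratio 2.39) and dio3b (LOC798872), which inactivates thyroid hormone, 707 at 500 μg/L against 282 at 5 μg/L (ratio 2.51). The carrier transthyretin (ttr) had 1978 at 500 μg/L against 3832 at 5 μg/L (ratio 0.516), dio1 149 at 500 μg/L against 269 at 5 μg/L (ratio 0.553) and the receptors thraa and thrb ratios of 1.38 and 0.845.

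In muscle most contractile genes had ratios near 1. Of 99 sarcomere and muscle genes 6 were higher and 4 lower (median -0.11). Tcap, a titin cap at the Z disc, had 4129 at 500 μg/L against 286 at 5 μg/L (ratio 14.4, interval 12.7 to 16.4), ankrd1a (LOC100151027), a strain-induced repressor, 1298 at 500 μg/L against 162 at 5 μg/L (ratio 8.02), the filamin flnca 3322 at 500 μg/L against 695 at 5 μg/L (ratio 4.78) and xirp1, which marks damaged sarcomeres, 2787 at 500 μg/L against 711 at 5 μg/L (ratio 3.92). In the heart list nppa and nppb (LOC100334610), natriuretic hormones of the strained heart, had 711 at 500 μg/L against 236 at 5 μg/L (ratio 3.01) and 229 at 500 μg/L against 26.2 at 5 μg/L (ratio 8.71). The ventricular myosin vmhc and the light chain myl7 had ratios of 0.961 and 1.21. The entries myh7 and myh7bb had identical values in both libraries (225 at 500 μg/L against 536 at 5 μg/L) and cannot be told apart in these data. Both were counted among the 4 lower muscle genes.

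Neural genes were slightly low. Pan-neuronal and synaptic genes had a median of -0.29 with 4 of 81 higher and 3 lower, neurotransmitter receptors a median of -0.28 and voltage-gated channels -0.20. The tubulins tuba1l and tubb5 of growing neurons had 2485 at 500 μg/L against 6222 at 5 μg/L (ratio 0.399) and 1132 at 500 μg/L against 2523 at 5 μg/L (ratio 0.449), the acetylcholinesterase ache 2659.6 at 500 μg/L against 4613 at 5 μg/L (ratio 0.577), and stmn4l, a stathmin, 3539 at 500 μg/L against 889 at 5 μg/L (ratio 3.98). Cadherins and protocadherins were below 1 in 87 of 94 cases, with 5 past 2-fold, among them pcdh10 (115 at 500 μg/L against 243 at 5 μg/L) and pcdhac2 (286 at 500 μg/L against 617 at 5 μg/L), while the epithelial cdh1 had 7049 at 500 μg/L against 4384 at 5 μg/L (ratio 1.61). The glutamine synthetases glula and glulb had 39772 at 500 μg/L against 21483 at 5 μg/L (ratio 1.85) and 34226 at 500 μg/L against 16458 at 5 μg/L (ratio 2.08), and the glial glutamate transporter slc1a2a 239.9 at 500 μg/L against 678 at 5 μg/L (ratio 0.354).

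Genes of growth and patterning showed small differences that mostly pointed down. DNA replication and mitosis genes were below 1 in 58 of 69 cases (median -0.30), with only top2a (305 at 500 μg/L against 649 at 5 μg/L) and foxm1 (94.9 at 500 μg/L against 192 at 5 μg/L) past 2-fold. Notch, Her and Hedgehog genes were below 1 in 37 of 44 (median -0.43), with the Notch ligand dlb (191 at 500 μg/L against 449 at 5 μg/L, ratio 0.425) and gli1 (191 at 500 μg/L against 349 at 5 μg/L, ratio 0.548). Hox genes had a median of -0.31, and Pax, Lhx, Dlx and related homeobox genes -0.39. The DNA methyltransferases dnmt6 (239 at 500 μg/L against 556 at 5 μg/L, ratio 0.429) and dnmt5 (124 at 500 μg/L against 260.2 at 5 μg/L) were the 2 lower genes of the chromatin list, and dnmt1 had a ratio of 0.503, just inside 2-fold (537 at 500 μg/L against 1067 at 5 μg/L).

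Several large lists gave shares at or below the background. Of 64 splicing factors none was past 2-fold, with ratios from 0.606 to 1.50. Of 70 cytosolic ribosomal proteins only rpl7l1 was (3948 at 500 μg/L against 1845 at 5 μg/L), and of 68 subunits of oxidative phosphorylation only the cytochrome c gene cycsb (8676 at 500 μg/L against 4144 at 5 μg/L). The mitochondrial ribosomal proteins had a median of 0.21 with none past 2-fold, and the enzymes of the citric acid cycle a median of 0.01. The clock list had 3 of 40 genes higher and 0 lower (median 0.08).

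Genes deposited under a LOC number, some of which have a RefSeq symbol such as cart3, made up 6668 of the members. Of them 9.51% were higher and 5.88% lower, against 6.11% and 3.03% of the 11039 other genes. Their median count was lower as well, 106 against 566 normalized counts, so the classes differ in depth. Among the PIM1-like kinases, a family expanded in fish, 12 of 50 were higher and 1 lower (median 0.18). Most were scarce, as 18 of the 50 reached 50 normalized counts. Among all genes with a mean of 10 to 30 normalized counts, 15.5% were higher and 12.1% lower. With a mean under 10 these shares were 39.1% and 32.9%. LOC561283 had 112 at 500 μg/L against 6.56 at 5 μg/L (ratio 17.1, interval 7.57 to 47.9), LOC100007738 127 at 500 μg/L against 16.4 at 5 μg/L (ratio 7.77), and the conserved pim1 2165 at 500 μg/L against 917 at 5 μg/L (ratio 2.36). The sequences of these copies were not compared, and the division of reads among them is uncertain. The larger NLR-like and GIMAP-like list had 11 of 251 higher and 15 lower (median 0.04), and 167 of its genes reached 50 normalized counts.

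Some of the higher genes lay next to each other. The gene order was taken from RefSeq assembly GRCz12tu, which is newer than the Zv9 assembly of the files and on which 14622 members (82.6%) could be placed, so no coordinates are given. The next member along the chromosome was also higher for 13.1% of 1047 higher genes, against 7.17% higher among all placed members, and also lower for 4.66% of 536 lower genes, against 3.67%. The longest run held 7 cathepsin L-like genes (ctsl1b, LOC100001785, MGC174155, LOC100537591, MGC174152, LOC100537665 and MGC174857), and another held 4 PIM1-like genes beside ivns1abpb. Neighbours of this kind may be near-identical copies that share reads, and their part in the first share was not tested. Other runs joined unlike genes, as ptgs2a did with the phospholipase cpla2, which releases the substrate of cyclooxygenase. By chromosome the share of higher genes ranged from 4.22% to 9.37% and that of lower genes from 1.90% to 5.08%.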

How the data were processed

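Poly(A) RNA from pools of whole larvae was sequenced on an Illumina platform, and the authors mapped the reads with BLAST to the zebrafish Zv9 and human hg19 assemblies. The authors deposited a signal per gene, normalized counts scaled with the trimmed mean of M-values (TMM) method. The counting tool, the gene annotation and the handling of strand are not given in the sources used here, so reads of near-identical, overlapping or antisense genes may have been divided. The vehicle library was not used here.

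Every deposited value was a whole multiple of a step fixed for its library (100% of values, within 0.0001 of a read), and dividing by the step gave back the reads, 27004647 over all entries at 500 μg/L and 30463582 at 5 μg/L. Named mRNA genes with at least 10 normalized counts in either library were kept. The ratio (500 over 5 μg/L) was given with a 95% Clopper-Pearson interval from the reads, and with 1 library per dose no test was a main result. List medians used a pseudocount of 1. Members and gene lists were chosen with earlier results of these data known. The genes named were the 12 highest and 12 lowest ratios above 100 normalized counts, the 10 most abundant genes, and from each list up to 4 per direction above 50 normalized counts with its 2 most counted members, plus genes the study names. Further members of families described, such as other collagens or Jun genes, were added after their values were seen.

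Alternatives were other minimums, scalings, pseudocounts, a floor of 3 reads, a 3-fold line, the MARS test as in DEGseq on normalized counts, Fisher's exact test and the exact test of edgeR with an assumed coefficient of variation of 0.2 or 0.4, all on these 2 libraries. A gene was counted by a test only if it was past 2-fold and also had p under 0.05. The p-values of Fisher's test and edgeR were adjusted by the method of Benjamini and Hochberg, and those of MARS were not. The scripts were tested on simulated data. Python 3.11.15 (numpy 2.4.6, pandas 2.3.3, scipy 1.17.1, matplotlib 3.10.9) and R 4.3.3 with edgeR 4.0.16 were used. Symbols and gene order came from RefSeq (GRCz12tu).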

Additional observations from a re-analysis of the deposited data

Results flagged for a closer look

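The table also holds entries other than mRNA, which no comparison above used. Of 254 ncRNA entries 38 were at least 2-fold higher at 500 μg/L and 18 at least 2-fold lower, which is 14.96% and 7.09%. Of 465 miscRNA entries 28 were higher and 21 lower, 6.02% and 4.52%. Beside these stand 7.39% higher and 4.10% lower over all mRNA genes tested, and 15.5% and 12.1% over mRNA genes with a mean of 10 to 30 normalized counts. The largest well counted difference among them was that of the miscRNA entry LOC100535112, which is uncharacterized, with 395 normalized counts at 500 μg/L against 27.3 at 5 μg/L (ratio 14.4, interval 9.60 to 22.7).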

How the results depend on the processing

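No paired analysis was possible because each dose had 1 library. Counts given below for a test are of genes past 2-fold that also passed the test, not of all genes that passed it. Against 1309 higher and 726 lower genes, other scalings gave 1296 to 1330 and 716 to 750, a pseudocount of 5 gave 1115 and 555, and Fisher's exact test 1164 and 609. With no minimum 1876 genes were higher and 1247 lower, and MARS, also run with no minimum, gave 1380 and 759. With a minimum of 50 normalized counts 958 were higher and 445 lower. Requiring the whole counting interval beyond 2-fold left 651 and 186, and a 3-fold line 509 and 197. The exact test of edgeR with an assumed coefficient of variation gave 496 and 122 genes at 0.2, and 29 and 0 at 0.4, and the spread between pools that these values stand for was not measured. The width of 0.50 in well counted genes was 0.69 as a plain SD. With a minimum of 50 normalized counts 5 of 96 list medians changed sign, and with either other scaling 1 of 96. Scalings shifted the log2 ratios of all genes by -0.013 and 0.007. Promoter motifs were planned but not analysed here, for want of promoter sequences. Genes with few reads are limited by depth, as the median interval half-width was 1.16 on the log2 scale at 10 to 30 normalized counts.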

Other observations

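Several gene groups outside the comparisons above had members far from 1. Of 118 amino acid and sugar transporters 18 were higher and 12 lower (median 0.18, beside -0.01 over all genes). Higher were monocarboxylate carriers, with LOC561766 (annotated as slc16a6b) having 1284 at 500 μg/L against 208 at 5 μg/L, slc16a9a (3575 at 500 μg/L against 854 at 5 μg/L) and the lactate exporter slc16a3 (2472 at 500 μg/L against 695 at 5 μg/L), and the glutamine carrier slc1a5 (1641 at 500 μg/L against 535 at 5 μg/L). Lower were the peptide transporter slc15a2, with 281 at 500 μg/L against 1201 at 5 μg/L, and the neutral amino acid transporter slc6a18, with 114 at 500 μg/L against 471 at 5 μg/L.

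Of 46 cilia genes 6 were higher and 0 lower (median 0.06). Foxj1a, the master regulator of motile cilia, had 478 at 500 μg/L against 136 at 5 μg/L (ratio 3.53), while intraflagellar transport genes such as ift172 had ratios near 1 (0.786). Vascular genes were higher in 4 of 40 cases (10%, beside 7.39% over all genes) and lower in 0. Their ratios ranged only from 0.556 to 2.21. The endothelial claudin cldn5b was among the higher genes (1352 at 500 μg/L against 612 at 5 μg/L). In the list of laminins, integrins and basement membrane proteins nid1a (nidogen) had 1600.2 at 500 μg/L against 3928 at 5 μg/L (ratio 0.407). Olfactory and taste receptors were lower in 15 of 58 cases and higher in 5 (median -0.38), but they were scarce, and or132-5, the only gene of the list to reach 50 normalized counts, had a ratio of 1.30. Trim-like genes were also more often lower than higher (17 and 6 of 132, or 12.9% and 4.55%), beside 4.10% and 7.39% over all genes. Many were scarce, as 81 of the 132 reached 50 normalized counts. Among all genes with a mean of 10 to 30 normalized counts, 12.1% were lower and 15.5% higher. LOC566281, annotated as trim35-13, lay at the lower end (6.25 at 500 μg/L against 51.4 at 5 μg/L, ratio 0.122).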
